A study of Mus musculus with 9 samples.

Results

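The 33 genes described here make up a module of glycolysis and the hypoxia response, listed by symbol rather than by a threshold on their values, and all 33 were found among the 55359 genes of the count table. They were chosen with earlier results of these data known, so shares of calls set beside those of all genes describe this list only. They were sorted by role into 14 glycolytic enzymes, 5 transporters and flux regulators, 3 oxygen sensing genes and 11 other hypoxia targets. The symbol Aldoa matched 2 entries, and the one with more counts was used (ENSMUSG00000030695), while the other held 3 to 30 counts a library. All 33 passed the filter on low counts.

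Glycolysis breaks glucose down to pyruvate and, through lactate dehydrogenase, to lactate, and cells short of oxygen lean on it. The hypoxia response is run by HIF-1, a transcription factor whose alpha subunit is marked by prolyl hydroxylases when oxygen is present and then destroyed through the VHL protein. When the subunit is stable it binds short DNA elements with the core ACGTG or GCGTG and switches on glucose transporters, glycolytic enzymes, blood vessel and pH regulators, and the hydroxylases that limit it. Activated macrophages, neutrophils and T cells also raise glycolysis and HIF-1 activity.

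RNA was sequenced from the omenta of 9 C57BL/6 mice, labelled as 7 to 10 weeks of age at the start, that had all received 500000 B16-OVA cells, a melanoma line expressing ovalbumin, into the peritoneal cavity. On day 6 the mice were given saline (PBS), or OVA-specific OT-I T lymphocytes electroporated with IL-12 mRNA, injected intraperitoneally (IP) or intravenously (IV), and the omenta were taken 18 h after the cells. Each group held 3 libraries, PBS 1, 2 and 3, IP 2, 3 and 4, and IV 1, 2 and 4, named by the mouse numbers of the labels. The omentum is a fatty abdominal fold in which peritoneal tumour cells settle, so each library mixes host tissue and tumour, and those of IP and IV may also hold the transferred T cells. No group was given T cells without IL-12 mRNA, and the labels name no route for PBS.

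Library totals ran from 7379798 counts in IV 2 to 44626843 in PBS 3. Melanoma genes were abundant in all libraries (a summed level over 11 markers of 27252 to 30585 CPM in PBS, 14445 to 16304 in IP and 19474 to 25235 in IV), and adipocyte and mesothelial markers of the omentum were detected in each group (537 to 939.7, 467 to 778 and 893 to 1337 CPM over 10 adipocyte genes, and 131 to 194, 130.4 to 169 and 157 to 204 over 8 mesothelial genes). CPM are counts per 1e+06 library counts, scaled throughout by TMM, which sets the libraries level on the bulk of genes, and libraries are given in the order of their numbers. Pancreatic acinar genes stood high in IP 4, IV 1 and IV 2 (20354, 27329.5 and 4792 CPM over 15 genes) and between 9.66 and 269 CPM in the other 6 libraries. IV 4 stood nearest to PBS 3. Over the 33 genes, r between its log2 CPM and those of another library was 0.9959 for PBS 3, 0.9922 for PBS 1 and 0.9901 for PBS 2, against 0.9888 for IV 1 and 0.9905 for IV 2. Over all genes tested it was 0.985, 0.9635 and 0.9659 for PBS 3, 1 and 2, and 0.9611 and 0.9684 for IV 1 and IV 2, a description across genes, which are not replicates. IV 2, the shallowest library with 70689 counts over the 33 genes, held the lowest level of all 9 libraries for 26 of them. The order of libraries was not counted over all genes, so such counts cannot be read as a trait of the 33. Results that rest on IV 4 or IV 2 are given with and without it.

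After IP delivery 17 of the 33 genes rose in the omentum, among them Egln3, Slc16a3, Adm, Ndrg1 and Vegfa, and after IV delivery 0 passed the test as higher. In IP against PBS 17 members were higher and 1 was lower (edgeR quasi-likelihood test, adjusted p under 0.05), with a median log2 fold change of 0.53 over the 33 members and 0.02 over all 17123 genes tested. Of all genes tested, 18.7% were higher and 14.2% lower in this comparison. By role, the higher members were 3 of 14 glycolytic enzymes (median 0.34), 4 of 5 transporters and flux regulators (1.35), 2 of 3 oxygen sensing genes (0.71) and 8 of 11 other hypoxia targets (1.39). At this cut-off the share among the glycolytic enzymes is near that of all genes, and the differences between the roles were not tested. With only IP and PBS fitted, Hk1 (adjusted p = 0.0338), Hk2 (0.0207), Gpi1 (0.0161) and Pfkl (0.00971) passed as higher too. All 3 IP libraries were above all 3 PBS libraries for 7 of the 14 enzymes and below them for 2. Among all genes these shares were 28.4% and 24.8%. For 21 members all 3 IP libraries were above all 3 PBS libraries, as they were for 28.4% of all genes tested. IP 4 was the lowest IP library for 15 of the 17 members called higher, an order not counted over all genes. Without IV 4 the counts were 17 and 1, and without IP 4, the IP library with the high acinar level, 17 and 0.

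The routes themselves also differed. Compared directly, 16 members were higher in IP than in IV and 0 were lower, against 5.93% higher and 4.47% lower among all genes, and the median was 0.69 over members and -0.02 over all genes. These were 4 of 14 glycolytic enzymes, 3 of 5 transporters and flux regulators, 3 of 3 oxygen sensing genes and 6 of 11 other hypoxia targets. All 3 IP libraries exceeded all 3 IV libraries for 24 members and for 17.9% of all genes. At an unadjusted p under 0.05 in edgeR 0 members were lower in IP than in IV, DESeq2 and limma voom called 0 lower too, and 23 and 20 higher. Without IV 2 the counts were 15 higher and 1 lower (Aldoc, named after its values were seen, adjusted p = 0.0379, against 0.214 with all libraries), and without IV 4 19 and 0. The 2 comparisons share the IP libraries, and 14 members were higher in both. In IV against PBS 0 members were higher and 1, Pgam1, was lower, where 10.4% of all genes were higher and 5.66% lower. At an unadjusted p under 0.05 edgeR had 1 member higher and 3 lower there, and DESeq2 and limma voom each called 0 higher and 1 lower.

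Higher genes made up 56.8% of all calls in IP against PBS, 64.8% in IV against PBS and 57.0% in IP against IV. With library totals in place of TMM these shares were 40.9%, 54.6% and 41.0%, and the median of all genes in IP against PBS moved from 0.02 to -0.15. On that scale 14 members were higher and 2 lower in IP against PBS, and 16 were higher in IP than in IV.

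**Figure D1:**
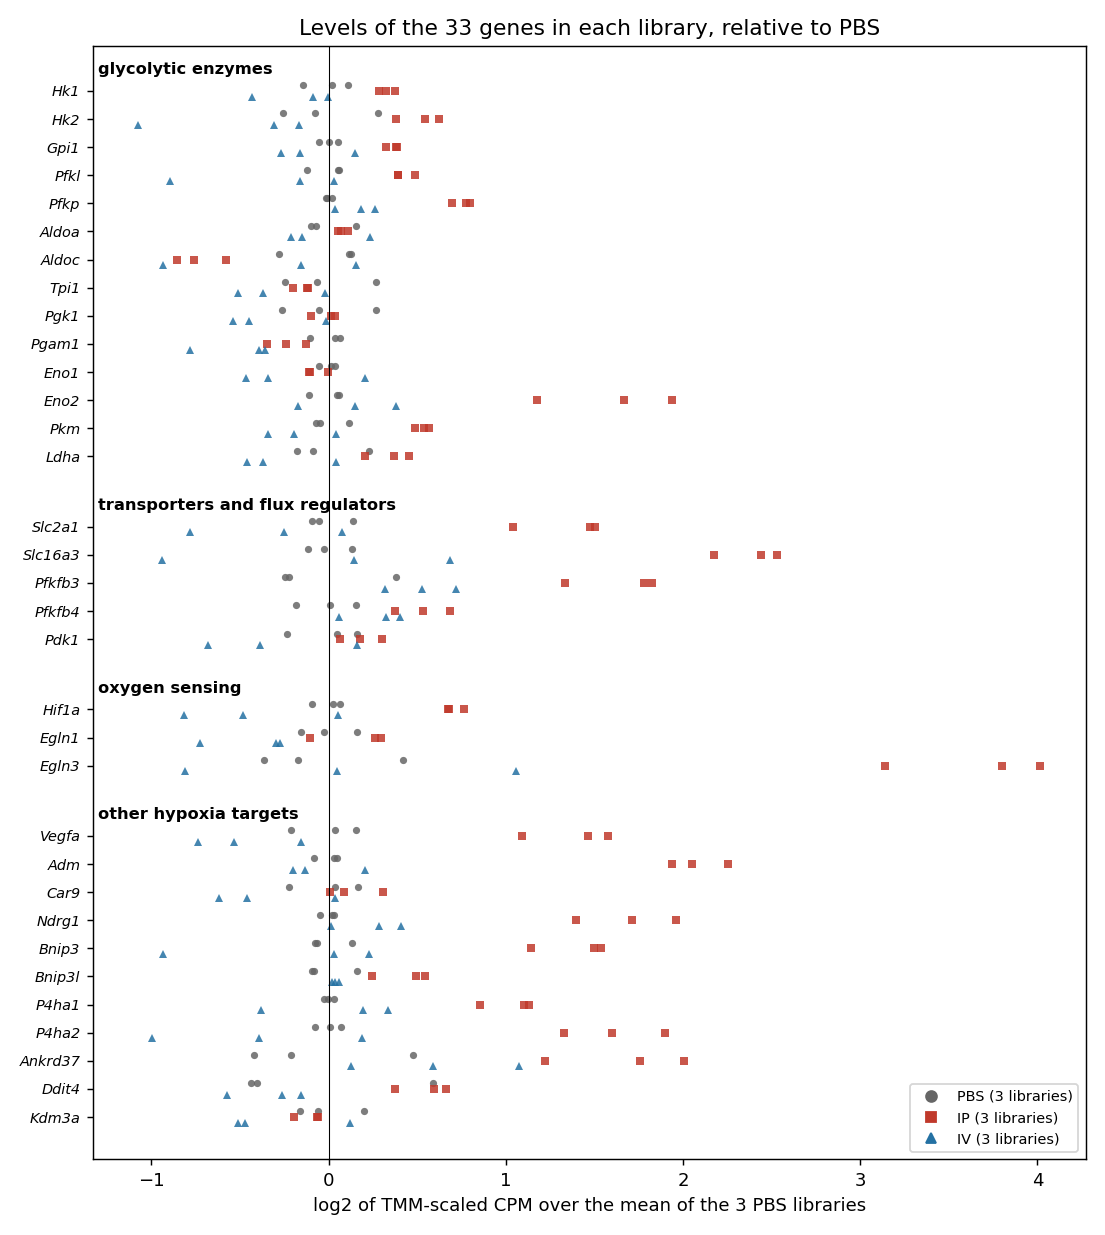
Level of each of the 33 genes in each library, as the log2 of its TMM-scaled CPM over the mean of the 3 PBS libraries, with genes sorted by role. Circles are PBS, squares IP and triangles IV libraries, and for Egln3, Slc16a3 and Adm the 3 IP squares lie well to the right of all other points.

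Markers of other cells moved in the same libraries. All 6 monocyte markers (summed level 90.7 to 241 CPM in PBS, 1106 to 1182 in IP and 555 to 857 in IV) and all 8 neutrophil markers (13.8 to 27.3, 166 to 217 and 33 to 192 CPM) were higher in IP than in PBS, as were 6 of 8 T cell markers and 4 of 5 tested erythroid markers. Macrophage markers were mixed, with 5 of 8 higher and 2 lower, and so were endothelial markers, with 3 of 6 higher and 1 lower. Of the melanoma markers 8 of 11 were lower in IP, and of the proliferation genes 12 of 12 (1724 to 2035, 805 to 922 and 1140.3 to 1477 CPM). Between the routes, 1 of 6 monocyte and 3 of 8 neutrophil markers were higher in IP, 10 of 12 proliferation genes and 4 of 11 melanoma markers were lower, and the macrophage list had 0 calls (1 higher and 2 lower at an unadjusted p under 0.05 in edgeR, 1 and 1 in DESeq2, and 0 and 0 in limma voom). All 6 B cell markers were lower in IP than in IV (median -2.19, summed level 55.4 to 67.1 CPM in PBS, 41.5 to 67.9 in IP and 131 to 486 in IV), and 2 of 10 adipocyte markers were, with a median of -0.98 over the 10. Among all genes tested 18.7% were higher and 14.2% lower in IP than in PBS. In IP against IV these shares were 5.93% and 4.47%. None of the marker genes was at 0 in all libraries. The part of these shifts in the changes of the 33 genes was not tested, and in bulk tissue a change in the number of cells of a type and a change of RNA per cell cannot be told apart.

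**Figure D2:**
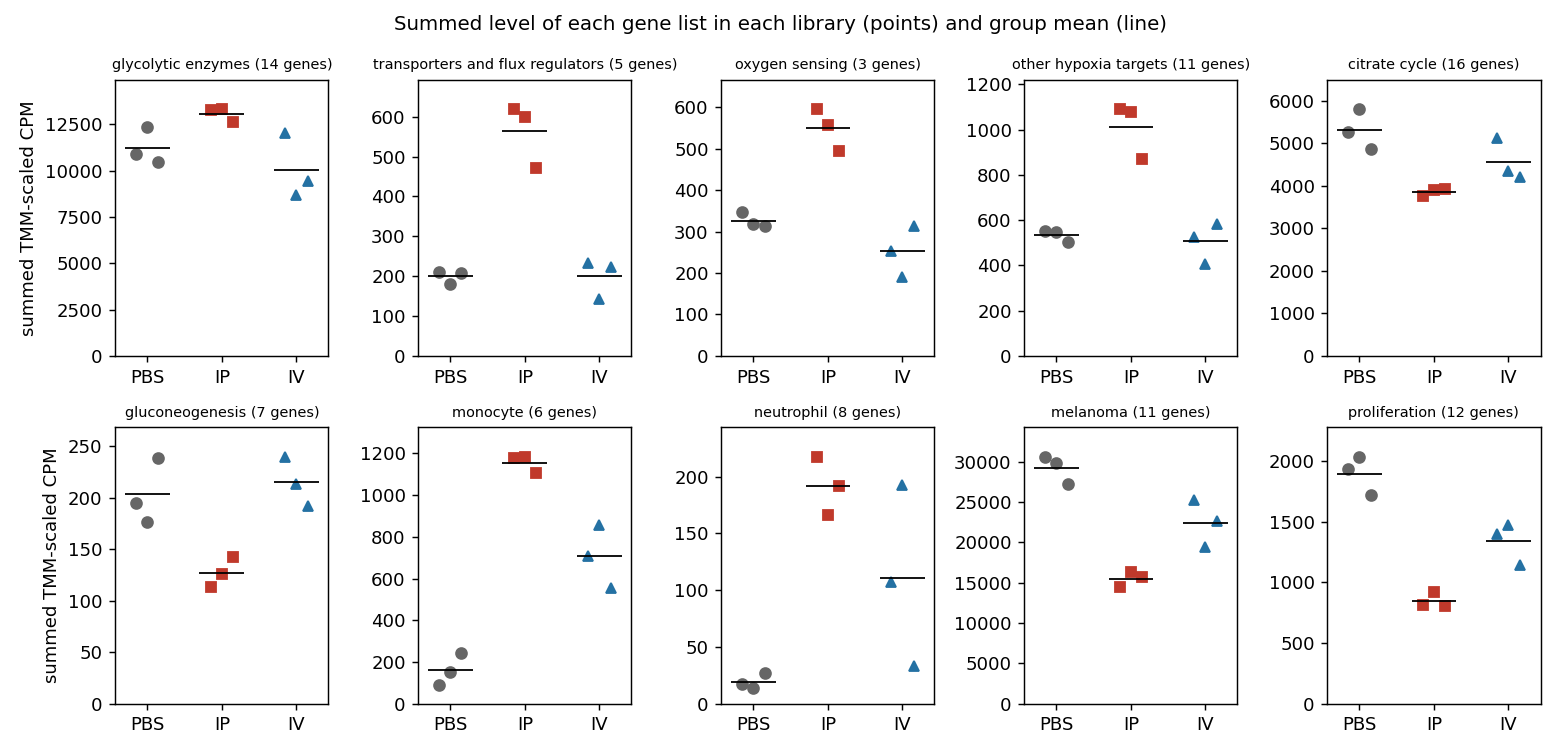
Summed TMM-scaled CPM of the 4 role groups, of 2 related pathways and of 4 marker lists, with 1 point per library and a line at the group mean. The hypoxia target sum is highest in the 3 IP libraries (869 to 1090.0 CPM), where the citrate cycle, melanoma and proliferation sums are lowest.

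The HIF core ACGTG was found in a larger share of member promoters than of promoters at large, while the share with GCGTG was nearer to that of tested genes. The members were listed as genes of glycolysis and the hypoxia response, so such a share describes the list and is no result of the treatments. RefSeq promoter windows (250 bases before to 50 after a start site, GRCm38.p6) were at hand for 31 of the 33 members, 44 windows in all, and the motifs were counted on both strands. ACGTG was present in 52.3% of the member windows, in 19.6% of all 32851 windows and in 24.2% of the windows of tested genes. GCGTG was present in 54.5%, 32.4% and 47.1% of them. Member windows also had a higher mean GC content (62.7 ± 8.0%, SD) than all windows (53.8 ± 11.3%) and those of tested genes (59.7 ± 9.9%), and both motifs hold a CG pair. Among members higher in IP than in PBS, 12 of 18 windows held ACGTG, and among the others 11 of 26. Counted by gene the shares were closer, 11 of 15 and 10 of 16, since a gene can have several windows. Both sets hold the letters, and the difference was not tested. Windows of 1 gene can overlap, and the palindrome CACGTG counts on both strands.

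Stretches of 35 bases before the start site are shown for members whose motif lies outside the RefSeq span of the gene, 5′ to 3′ on the strand of the gene with ACGTG or its reverse complement CACGT in capitals. Slc2a1, Egln3, Bnip3 and P4ha2 were higher in IP than in PBS.
Slc2a1 (chr4:119108694-119108728, + strand): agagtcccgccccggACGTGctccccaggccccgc
Egln3 (chr12:54204084-54204118, - strand): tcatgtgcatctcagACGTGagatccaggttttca
Bnip3 (chr7:138909594-138909628, - strand): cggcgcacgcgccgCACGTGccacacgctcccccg
P4ha2 (chr11:54100831-54100865, + strand): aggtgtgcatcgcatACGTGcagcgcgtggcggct
Hk2 and Egln1 were higher in IP than in IV only, and Pgk1, Pgam1, Car9 and Ddit4 were not called higher in either comparison, although their promoters hold the same letters.
Hk2 (chr6:82774487-82774521, - strand): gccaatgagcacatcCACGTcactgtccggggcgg
Egln1 (chr8:124949303-124949337, - strand): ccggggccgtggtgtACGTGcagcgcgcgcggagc
Pgk1 (chrX:106186954-106186988, + strand): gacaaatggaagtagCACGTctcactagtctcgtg
Pgam1 (chr19:41911742-41911776, + strand): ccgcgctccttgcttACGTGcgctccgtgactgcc
Car9 (chr4:43506991-43507025, + strand): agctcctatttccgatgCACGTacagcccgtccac
Ddit4 (chr10:59951938-59951972, - strand): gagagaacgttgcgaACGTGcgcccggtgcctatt
A match shows letters only, and no binding was measured.

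Of the oxygen sensing genes, Egln3 had the largest log2 fold change of the 33 in IP against PBS. Changes are given from here on as log2 fold change ± standard error, with p adjusted over all genes tested. Egln3 (ENSMUSG00000035105) encodes the prolyl hydroxylase PHD3, which is itself induced by HIF and feeds back on it. It was at 5.6, 4.91 and 8.43 CPM in PBS, 102, 88 and 55.7 in IP and 13.2, 3.6 and 6.53 in IV. The IP libraries lay far above all 6 others, with IP 4 the lowest of the 3, and IV 1 was the highest of the rest. The log2 fold change was 3.69 ± 0.41 (adjusted p = 9.77e-05) in IP against PBS and 3.34 ± 0.41 (adjusted p = 0.00104) in IP against IV.

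Hif1a, the gene of the HIF-1 alpha subunit, was at 223, 217 and 200.1 CPM in PBS, 362, 342 and 340.3 in IP and 153, 121 and 221 in IV. The IP libraries were again above all others, and IV 4 sat within the PBS range while IV 1 and IV 2 were below it. Hif1a rose in IP against PBS (0.71 ± 0.19, adjusted p = 0.0164) and was higher in IP than in IV (1.07 ± 0.19, adjusted p = 0.00661). The first call was lost in 6 of 21 other settings, with adjusted p up to 0.12, among them library totals and the fits without PBS 2 (0.0558), PBS 3 (0.0534) or IP 2 (0.0601). Transcript levels say nothing of the protein, whose stability is the oxygen-controlled step.

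Egln1, the main oxygen sensor PHD2, was at 119, 96.2 and 105 CPM in PBS, 131, 128 and 99.6 in IP and 88.3, 64.6 and 87 in IV. The IP and PBS ranges overlapped, and all 3 IV libraries were below both. Egln1 was not called in IP against PBS (0.16 ± 0.16, adjusted p = 0.483), and its difference between IP and IV (0.58 ± 0.16, adjusted p = 0.0457) was lost in 15 of 21 settings, among them those without PBS 1 (adjusted p = 0.0572), PBS 2 (adjusted p = 0.0525), PBS 3 (adjusted p = 0.0567), IP 2 (adjusted p = 0.186), IP 3 (adjusted p = 0.169), IV 1 (adjusted p = 0.0593) or IV 2 (adjusted p = 0.132). Within libraries, the log2 ratio of Egln3 to Egln1 was -4.30, -4.16 and -3.56 in PBS, -0.36, -0.54 and -0.83 in IP and -2.70, -3.99 and -3.64 in IV.

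Of 7 further genes of oxygen sensing, 2 were higher in IP than in PBS and 0 were lower (0 at an unadjusted p under 0.05 in edgeR, and 0 in DESeq2 and limma voom). Among all genes 18.7% were higher and 14.2% lower, so 2 of 7 is near the share at large. Epas1, which encodes the related HIF-2 alpha subunit, rose from 24.7 ± 4.57 to 50.5 ± 5.63 CPM (SD, n = 3; 1.03 ± 0.17, adjusted p = 0.000871) and was at 29 ± 3.91 in IV. Endothelial cells, which are known to express it strongly, had 3 of 6 markers higher and 1 lower in IP (summed level 119 to 126 CPM in PBS, 138 to 166 in IP and 98.1 to 175 in IV), and their part in the Epas1 values was not tested. Vhl, the gene of the ubiquitin ligase subunit that removes HIF, rose by 0.37 ± 0.13 (adjusted p = 0.0455), and with library totals 1 of the 7 was higher. Arnt, the constant partner of the alpha subunits, was at 58.5 ± 3.48, 71.2 ± 0.593 and 53.9 ± 11.2 CPM in PBS, IP and IV and was not called in any of the 3 comparisons (adjusted p from 0.111 to 0.634).

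Genes that carry glucose in and lactate out, or set the flow through glycolysis, passed the test as higher in IP against PBS in 4 of 5 cases, against 18.7% of all genes tested. Slc16a3 (ENSMUSG00000025161), the lactate exporter MCT4, was at 45.7, 38.5 and 41.1 CPM in PBS, 241, 227 and 188 in IP and 67.1, 21.7 and 46 in IV. Every IP library exceeded every other library, and the IV libraries spread on both sides of PBS. The log2 fold change was 2.39 ± 0.31 (adjusted p = 0.000241) against PBS and 2.27 ± 0.31 (adjusted p = 0.00183) against IV.

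Slc2a1 (ENSMUSG00000028645), the glucose transporter GLUT1, was at 72.6, 63.5 and 61.9 CPM in PBS, 183, 187 and 136 in IP and 69.5, 38.4 and 55.4 in IV. Its IP libraries did not overlap with either group, and 2 of the 3 IV libraries were below PBS. It rose by 1.35 ± 0.20 (adjusted p = 0.000572) against PBS and was higher in IP than in IV by 1.63 ± 0.21 (adjusted p = 0.00124). Slc2a3, the transporter GLUT3 outside the list, averaged 23.7 ± 1.69, 26.9 ± 3.02 and 16.6 ± 2.17 CPM in PBS, IP and IV, with a log2 fold change of 0.18 ± 0.14 (adjusted p = 0.366) in IP against PBS, -0.50 ± 0.15 (adjusted p = 0.0402) in IV against PBS and 0.69 ± 0.15 (adjusted p = 0.0143) in IP against IV.

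Pfkfb3, which makes the activator of phosphofructokinase, was at 28.9, 28.4 and 43.9 CPM in PBS, 119.6, 116 and 85.1 in IP and 48.6, 42 and 55.7 in IV. IP was above both other groups, and IV overlapped with PBS only through PBS 3. It rose by 1.66 ± 0.20 (adjusted p = 0.000158) in IP against PBS, and in IV against PBS the value was 0.53 ± 0.20 (adjusted p = 0.0963), which passed without PBS 3 (0.77, adjusted p = 0.0216, with adjusted p up to 0.303 in other settings). Its relative Pfkfb4 was at 6.88, 7.87 and 8.7 CPM in PBS, 12.5, 11.3 and 10.1 in IP and 9.79, 8.14 and 10.3 in IV. The IP libraries cleared PBS but met the highest IV library. Pfkfb4 rose in IP by 0.53 ± 0.17 (adjusted p = 0.0329), a call lost in 9 of 21 settings with adjusted p up to 0.171, including the fits without PBS 1 (0.142), PBS 2 (0.0957), IP 2 (0.143) or IP 3 (0.0952).

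Pdk1, the kinase that closes the gate from pyruvate into the citrate cycle, was at 56, 42.6 and 51.8 CPM in PBS, 61.7, 56.7 and 52.4 in IP and 38.3, 31.4 and 56.1 in IV. The 3 groups overlapped, and no comparison passed (IP against PBS 0.18 ± 0.20, adjusted p = 0.523, IP against IV 0.43 ± 0.20, adjusted p = 0.203). Without IV 4 the difference between IP and IV passed (adjusted p = 0.0135, with up to 0.469 in other settings).

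**Figure D3:**
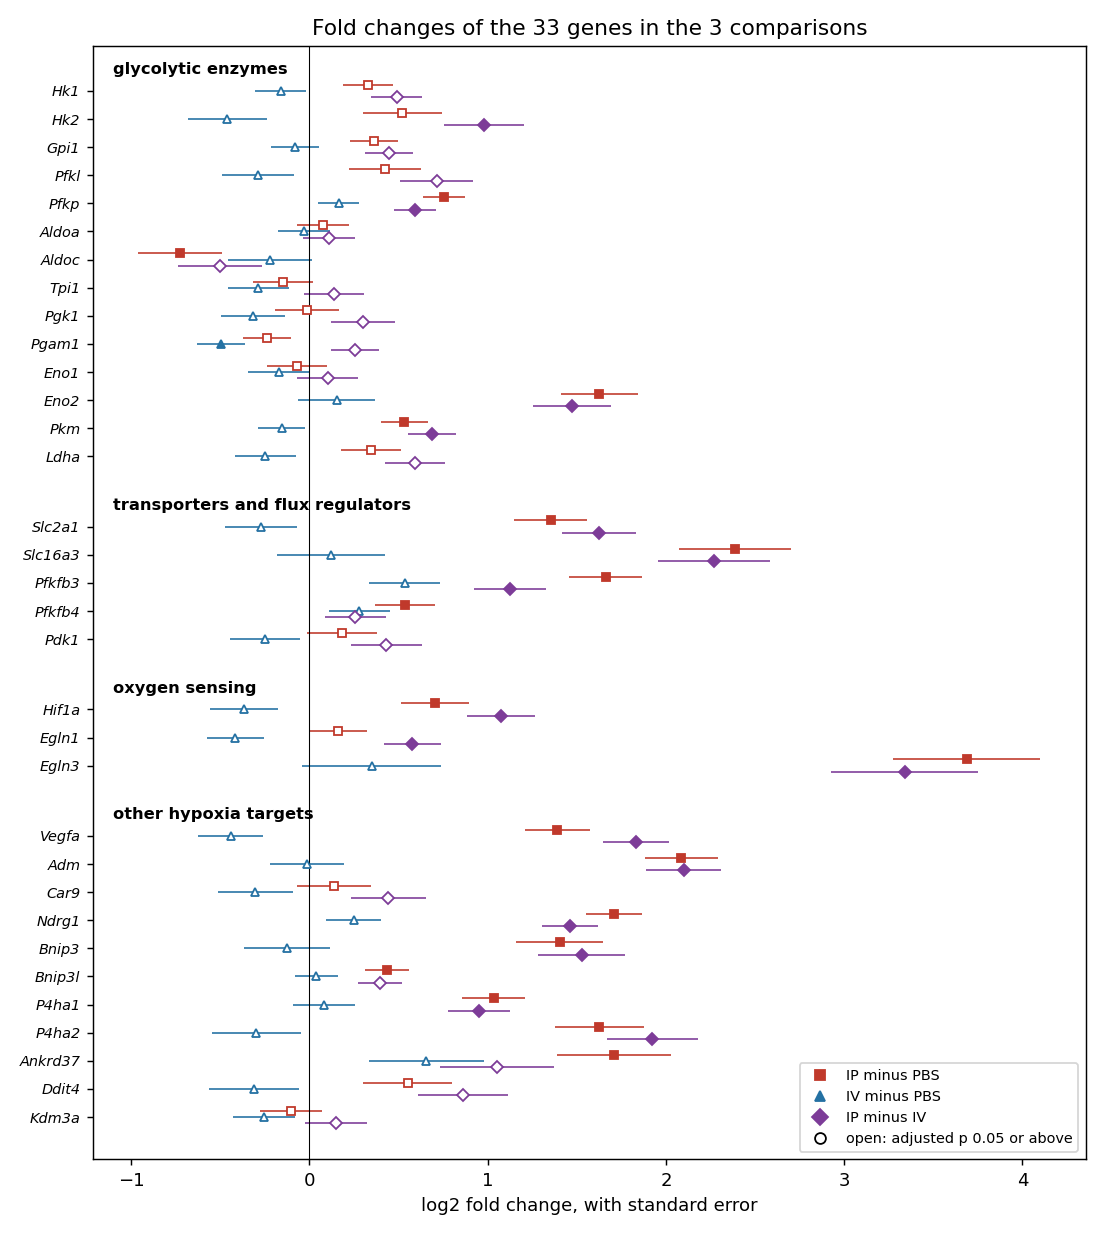
Log2 fold change with its standard error for each of the 33 genes in IP against PBS (squares), IV against PBS (triangles) and IP against IV (diamonds), from 1 edgeR fit of all 9 libraries. Filled symbols have an adjusted p under 0.05. The filled squares and diamonds are mostly outside the glycolytic enzymes, and 1 triangle, that of Pgam1, is filled.

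Along the glycolytic chain itself the changes were uneven. The first step is done by hexokinases. Hk2, the inducible form, was at 166, 129.6 and 114 CPM in PBS, 199, 210.4 and 178 in IP and 122, 64.8 and 110.4 in IV. The IP libraries were above the highest PBS library by a small margin, and IV 2 was the lowest of all. In IP against PBS the log2 fold change was 0.52 ± 0.22 (adjusted p = 0.0983), not past the threshold, while IP was higher than IV by 0.98 ± 0.22 (adjusted p = 0.0195), a call lost on the deposited log2 CPM and without IP 2 (adjusted p = 0.0785) or IP 3 (adjusted p = 0.08). The first comparison passed in 3 settings, among them the fit without IV 2 (adjusted p = 0.0283). Hk1, the housekeeping form, was at 283 ± 25, 356 ± 11.7 and 253 ± 38.2 CPM in PBS, IP and IV (0.33 ± 0.14, adjusted p = 0.103 in IP against PBS). Its difference between IP and IV (0.49 ± 0.14, adjusted p = 0.0533) passed without IV 4 (adjusted p = 0.0235).

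Gpi1, the isomerase of the second step, was at 792 ± 29.9 CPM in PBS, 1019.6 ± 23.8 in IP and 748 ± 116 in IV (0.36 ± 0.14, adjusted p = 0.062 in IP against PBS, and 0.45 ± 0.14, adjusted p = 0.0619 in IP against IV). The first passed without IV 1 (adjusted p = 0.0306) or IV 2 (adjusted p = 0.0468), and the second without IV 1 (adjusted p = 0.021). The committing step is phosphofructokinase. Its platelet-type gene Pfkp was at 285, 292 and 287 CPM in PBS, 466, 499.8 and 493 in IP and 345, 296 and 327 in IV. The IP libraries were apart from all others, and PBS was the tightest group. Pfkp rose in IP against PBS by 0.76 ± 0.12 (adjusted p = 0.000673) and was higher than in IV by 0.59 ± 0.12 (adjusted p = 0.0104), the latter lost with the replicate block and without IP 3 (adjusted p = 0.0583). The liver-type gene Pfkl went from 323 ± 22.3 to 434 ± 16.8 CPM without passing (0.42 ± 0.20, adjusted p = 0.139), although the 2 groups did not overlap. It passed there without IV 2 (adjusted p = 0.0223), and in IP against IV (0.71 ± 0.20, adjusted p = 0.0509) without IV 1 (adjusted p = 0.025) or IV 4 (adjusted p = 0.0412). The phosphofructokinase gene Pfkm, outside the list and named after its values were seen, was lower in IP than in PBS. It was at 64.6 ± 2.16, 39.2 ± 3.58 and 46.7 ± 11.5 CPM in PBS, IP and IV (-0.72 ± 0.17, adjusted p = 0.00761 in IP against PBS).

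In the middle of the chain, which cleaves and oxidises the sugar, Aldoa, Tpi1 and Pgk1 did not pass in any of the 3 comparisons. Aldoa, the main aldolase, was at 2344 ± 233, 2474 ± 51.1 and 2297 ± 399 CPM in PBS, IP and IV (0.08 ± 0.15, adjusted p = 0.726 in IP against PBS). Tpi1, triose phosphate isomerase, was at 1743 ± 320.3, 1575 ± 51 and 1429.6 ± 259 CPM (-0.15 ± 0.17, adjusted p = 0.551). Gapdh, outside the list, which catalyses the oxidation step, was at 2026 ± 327, 1921 ± 81.9 and 1843 ± 326 CPM (-0.08 ± 0.16, adjusted p = 0.759). For these abundant enzymes, including Pgk1 (-0.01 ± 0.18, adjusted p = 0.962), which yields the first ATP, the group ranges overlapped between IP and PBS. A value that missed the threshold is not thereby shown to be unchanged, and the signs of the Aldoa, Pgk1 and Eno1 values in this comparison differed between settings.

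Aldoc, the brain-type aldolase, was the single member lower in IP. It was at 33.9, 34.3 and 25.8 CPM in PBS, 18.5, 17.4 and 21 in IP and 28.2, 16.4 and 34.9 in IV. All IP libraries were below all PBS libraries, and IV 2 was lower still. The fold change was -0.73 ± 0.24 (adjusted p = 0.0365), a call lost without PBS 1 (0.114), PBS 2 (0.0889), IP 2 (0.109), IP 3 (0.122) or IP 4 (0.0668), the numbers being adjusted p. Pgam1, the mutase that moves the phosphate, was at 138, 135 and 123 CPM in PBS, 112, 121 and 104 in IP and 103, 77 and 101 in IV. It was lower in IV than in PBS (-0.49 ± 0.13, adjusted p = 0.032), with IV 2 the lowest and no overlap between the groups, and the call was lost in 9 of 21 settings, with adjusted p up to 0.121, among them those without PBS 1 (0.121), PBS 2 (0.066), IP 2 (0.0597), IP 3 (0.055), IP 4 (0.0527) or IV 2 (0.0913). In IP against PBS Pgam1 had a fold change of -0.24 ± 0.13 (adjusted p = 0.21).

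At the end of the chain, Eno2 and Pkm rose. Eno2, the neuron-type enolase, was at 6.69, 5.99 and 6.75 CPM in PBS, 24.9, 14.7 and 20.5 in IP and 8.44, 5.74 and 7.17 in IV. Its IP libraries spread from IP 3 up to IP 2, and all were above every PBS and IV library. It rose by 1.63 ± 0.22 (adjusted p = 0.000255) against PBS and was higher in IP than in IV by 1.47 ± 0.22 (adjusted p = 0.00259). The common enolase Eno1 was at 1313 ± 41.9, 1251 ± 51.8 and 1165 ± 304 CPM (-0.07 ± 0.17, adjusted p = 0.788 in IP against PBS). The enolase gene Eno3, outside the list and named after its values were seen, was lower in IP than in PBS. It was at 37.2 ± 6.25, 19.1 ± 2.57 and 25.7 ± 5.22 CPM in PBS, IP and IV (-0.96 ± 0.19, adjusted p = 0.00258 in IP against PBS).

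Pkm, pyruvate kinase, was at 2021, 2306 and 2054 CPM in PBS, 3095, 3156 and 2979.7 in IP and 2192, 1681 and 1855 in IV. The 3 IP libraries lay within a narrow band above all others. It rose by 0.53 ± 0.13 (adjusted p = 0.0106) in IP against PBS, with adjusted p of up to 0.059 in 2 settings (no filter, and the deposited log2 CPM), and was higher than in IV by 0.69 ± 0.13 (adjusted p = 0.00942), lost without IP 2 (adjusted p = 0.0534) or IP 3 (adjusted p = 0.0525). Ldha, the lactate dehydrogenase subunit that favours lactate, was at 1145, 1425 and 1076 CPM in PBS, 1662, 1567 and 1404 in IP and 1249.7, 883 and 940.4 in IV. IP met PBS at PBS 2, and the difference did not pass (0.35 ± 0.17, adjusted p = 0.147). Against IV it was 0.59 ± 0.17 (adjusted p = 0.0508), and passed in 8 of 21 other settings, among them those without PBS 2 (adjusted p = 0.0374) or IV 1 (adjusted p = 0.0195). Ldhb, the subunit outside the list that favours pyruvate, fell from 524 ± 116 to 278 ± 11.5 CPM in IP (-0.91 ± 0.19, adjusted p = 0.00433) and was at 426 ± 93 in IV.

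Per kilobase of annotated exon (GENCODE M21), the levels in PBS ranged from 805 CPM per kb for Aldoa to 1.38 for Eno2. The length is the union of all exons annotated for a gene (8532 bases for Hk1, 13401 for Pfkp). It can exceed the transcript in use, by amounts that differ between genes, so genes are set side by side only roughly. In IP, Pkm reached 615 and Ldha 467 CPM per kb, while Slc16a3 went from 7.85 to 41.1, near the level of Hk1 (41.7). The sum over the 14 enzymes was 10435 to 12362 CPM in PBS, 12604 to 13300.2 in IP and 8693 to 12005 in IV. With library totals in place of TMM, a scaling tried on this sum after seeing the data, the ranges of PBS and IP overlapped (11504 to 12388 and 11951 to 12481). Several of these enzymes have processed copies in the genome that may have taken or given reads in counting, which makes the levels of Aldoa, Tpi1, Pgk1, Pgam1, Eno1 and Ldha less certain.

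Of the other hypoxia targets, 8 of 11 were higher in IP than in PBS, and 0 were lower (0 at an unadjusted p under 0.05 in edgeR, and 0 in DESeq2 and limma voom). Among all genes tested 18.7% were higher and 14.2% lower in this comparison. Adm (ENSMUSG00000030790), the vasodilator peptide adrenomedullin, was at 2.35, 2.38 and 2.17 CPM in PBS, 9.55, 11 and 8.83 in IP and 2.66, 2 and 2.1 in IV. The 3 IP libraries were close together and far from the other 6, which differed little from each other. It rose by 2.09 ± 0.20 (adjusted p = 4.86e-05) against PBS and was higher in IP than in IV by 2.10 ± 0.21 (adjusted p = 0.000481).

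Vegfa (ENSMUSG00000023951), the main growth factor for blood vessels, was at 37.9, 29.3 and 34.8 CPM in PBS, 101, 93.8 and 72.3 in IP and 23.5, 20.4 and 30.5 in IV. IP was highest throughout, and 2 of the 3 IV libraries were below all PBS libraries. The fold change was 1.39 ± 0.18 (adjusted p = 0.000237) in IP against PBS and 1.83 ± 0.19 (adjusted p = 0.000482) in IP against IV.

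Ndrg1 (ENSMUSG00000005125), a stress-induced gene linked to differentiation, was at 50.7, 53.6 and 53.1 CPM in PBS, 204, 172 and 138 in IP and 63.8, 53 and 69.7 in IV. The IP libraries were the only ones above 100 CPM, and it rose by 1.71 ± 0.16 (adjusted p = 4.01e-05) against PBS, the smallest adjusted p of the 33 genes in that comparison.

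The mitophagy receptors Bnip3 and Bnip3l mark mitochondria for removal. Bnip3 was at 37.7, 32.9 and 32.5 CPM in PBS, 99.9, 96.9 and 76 in IP and 35, 18 and 40.3 in IV. It was high in all IP libraries and lowest in IV 2, with a rise of 1.40 ± 0.24 (adjusted p = 0.00134) against PBS. Bnip3l, also known from the clearance of mitochondria in maturing red cells, was at 70.2, 59.3 and 58.7 CPM in PBS, 88.3, 91.6 and 74.4 in IP and 65.4, 63.5 and 64.4 in IV. The IP libraries were above PBS by a small margin, and the rise of 0.43 ± 0.12 (adjusted p = 0.0187) was lost in 7 of 21 settings, with adjusted p up to 0.198, among them those without PBS 2 (0.0656), PBS 3 (0.0666), IP 2 (0.0801) or IP 3 (0.0923). In the same libraries 4 of 5 tested erythroid markers were higher in IP than in PBS, with a sum of 7.07 to 9.47 CPM in PBS, 18.4 to 33.5 in IP and 10.3 to 48.3 in IV, and their part in the Bnip3l values was not tested.

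P4ha1 and P4ha2 encode the catalytic subunits of collagen prolyl hydroxylase, which lets collagen fold. P4ha1 was at 134, 138 and 132 CPM in PBS, 289.7, 295 and 243 in IP and 154, 104 and 170.1 in IV. P4ha2 was at 23.5, 24.5 and 22.2 CPM in PBS, 70.8, 87.3 and 58.7 in IP and 26.6, 11.7 and 17.8 in IV. For both genes all IP libraries exceeded all others, and P4ha2 was in addition below PBS in IV 2 and IV 4. P4ha1 rose by 1.03 ± 0.18 (adjusted p = 0.0012) and P4ha2 by 1.63 ± 0.25 (adjusted p = 0.00063) in IP against PBS, and IP was higher than IV by 0.95 ± 0.18 (adjusted p = 0.00744) and 1.92 ± 0.25 (adjusted p = 0.00148).

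Ankrd37, an ankyrin-repeat gene known as a HIF-1 target, was at 3.52, 5.68 and 3.05 CPM in PBS, 13.8, 16.4 and 9.5 in IP and 8.59, 6.14 and 4.45 in IV. It rose in IP against PBS by 1.71 ± 0.32 (adjusted p = 0.00215), where the groups did not overlap. The IV libraries were all below the IP libraries and overlapped with PBS, and the IP minus IV value of 1.05 ± 0.32 (adjusted p = 0.0613) passed in 7 of 21 other settings, among them those without PBS 2 (adjusted p = 0.0391) or IV 1 (adjusted p = 0.0368). Ddit4, the mTOR inhibitor REDD1, was at 41.4, 84.6 and 42.4 CPM in PBS, 88.7, 84.8 and 72.8 in IP and 50.4, 37.8 and 46.8 in IV. PBS 2 stood with the IP libraries, apart from PBS 1 and PBS 3, and the difference of 0.55 ± 0.25 (adjusted p = 0.123) passed once PBS 2 was left out (0.93, adjusted p = 0.0024, with up to 0.361 in other settings). In IP against IV (0.86 ± 0.25, adjusted p = 0.0566) Ddit4 passed in 5 settings, among them those without PBS 1 (adjusted p = 0.0486), PBS 2 (adjusted p = 0.00586) or PBS 3 (adjusted p = 0.0444).

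Car9 and Kdm3a did not pass in any of the 3 comparisons with all 9 libraries. Car9, the membrane carbonic anhydrase that exports acid, was at 8.96, 8.18 and 6.83 CPM in PBS, 8.03, 9.87 and 8.49 in IP and 8.19, 5.2 and 5.8 in IV. Its groups overlapped (0.14 ± 0.21, adjusted p = 0.652 in IP against PBS, with a sign that differed between settings). Kdm3a, a histone demethylase gene, was at 122 ± 15.9, 113 ± 5.93 and 102 ± 26.5 CPM in PBS, IP and IV (-0.11 ± 0.17, adjusted p = 0.688 in IP against PBS).

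Paired genes that do the same step were then compared inside each library, where scaling cancels. The mean log2 ratio was higher in IP than in PBS for enolase (Eno2 over Eno1, a difference of 1.60), for the HIF hydroxylases (Egln3 over Egln1, 3.43) and for the collagen hydroxylases (P4ha2 over P4ha1, 0.56). It was lower in IP for aldolase (Aldoc over Aldoa, -0.79) and for the phosphofructokinase activators (Pfkfb4 over Pfkfb3, -1.15). Bnip3l over Bnip3 was 0.89, 0.84 and 0.84 in PBS and -0.18, -0.08 and -0.03 in IP, a difference of -0.95. In these 6 pairs, and in Pfkp over Pfkl (0.33), the IP and PBS libraries did not overlap.

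The ratio of Hk2 to Hk1 was -0.79, -0.98 and -1.42 in PBS, -0.79, -0.80 and -0.99 in IP and -1.13, -1.69 and -1.35 in IV, with overlap between IP and PBS. An exact two-sided permutation test of 3 against 3 libraries cannot go below p = 0.10, which 7 of the 8 pairs reached in IP against PBS, and over the 24 tests of 8 pairs in 3 comparisons the smallest adjusted p was 0.16. None of the ratios therefore passed the threshold.

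**Figure D4:**
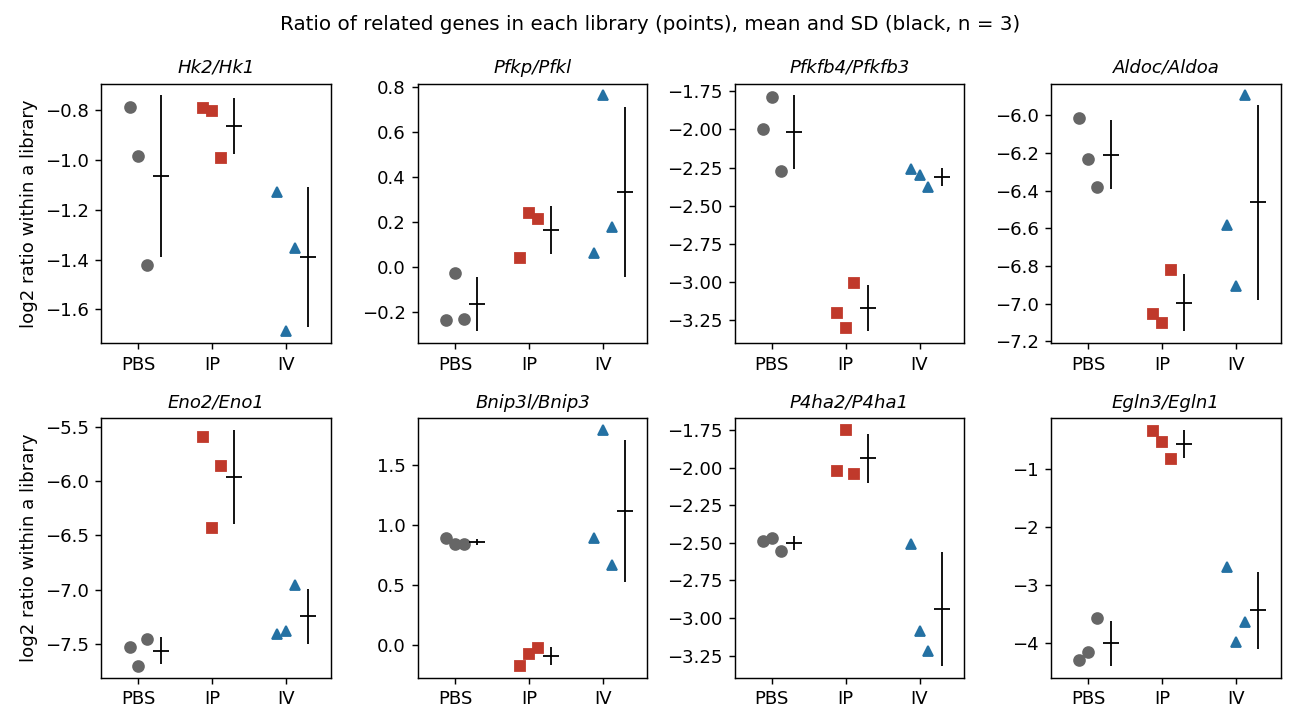
Log2 ratio of 2 related genes within each library (TMM-scaled CPM plus 0.5) in PBS, IP and IV, with the mean and SD of the 3 libraries in black, and axes that do not start at 0. The Egln3/Egln1, Eno2/Eno1 and Bnip3l/Bnip3 panels show the IP libraries apart from all others.

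After IV delivery 10 of the 33 genes had a log2 fold change above 0 against PBS in the fit of all libraries. The same held for 9189 of all 17123 genes tested. The median log2 fold change was -0.17 over members and 0.04 over all genes. The 3 IV libraries differed among themselves: for 31 of the 33 genes IV 2 was the lowest of them, an order not counted over all genes. Without IV 4, 5 members were lower in IV than in PBS, where without any other single library at most 1 was. They were Hif1a (-0.64, adjusted p = 0.00852), Vegfa (-0.63, adjusted p = 0.0244), Pdk1 (-0.52, adjusted p = 0.0294), Kdm3a (-0.49, adjusted p = 0.0192) and Pgam1 (-0.55, adjusted p = 0.0191). Over all settings tried the adjusted p of these 5 genes reached 0.547, 0.346, 0.832, 0.714 and 0.121. That fit leaves 2 IV libraries, both with high acinar levels, and calls more genes overall (2332 higher and 2248 lower, against 1784 and 969 with all libraries). The share of members lower in it was near that of all genes, of which 17123 were tested with all libraries. In IV against PBS with all libraries 4 of 6 monocyte, 4 of 8 macrophage and 2 of 8 neutrophil markers were higher. So were 6 of 8 T cell, 6 of 6 B cell, 3 of 5 tested erythroid and 2 of 10 adipocyte markers. Lower were 5 of 11 melanoma markers and 7 of 12 proliferation genes. Among all genes tested 10.4% were higher and 5.66% lower there. The part of these marker shifts in the values of the 33 genes was not tested.

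Genes of neighbouring pathways, from lists that overlap with no member, were counted in the same fit. These lists, too, were chosen with earlier results of these data known, so their counts are a description and no separate test. Of 24 further hypoxia targets 11 were higher and 1 was lower in IP than in PBS, with a median of 0.68. Among all genes 18.7% were higher and 14.2% lower there. In IP against IV 10 were higher and 0 lower (0 at an unadjusted p under 0.05 in edgeR, and 0 in DESeq2 and limma voom), against 5.93% and 4.47% of all genes. In IV against PBS 1 of the 24 was higher and 2 were lower, against 10.4% and 5.66% of all genes. Of 19 tested genes of glycolysis and glucose handling outside the list, 2 were higher and 8 lower in IP than in PBS, against 18.7% and 14.2% of all genes. Their median was -0.34. The 2 higher ones, named after their values were seen, were Hk3, a hexokinase of myeloid cells (16.3 ± 13.9 CPM in PBS, 287 ± 15.4 in IP and 109.7 ± 14 in IV), and the pyruvate dehydrogenase kinase gene Pdk3 (40.1 ± 4.51, 80.4 ± 6.19 and 53.6 ± 4.07 CPM). Both were also higher in IV than in PBS (Hk3 2.74 ± 0.50, adjusted p = 0.00836, Pdk3 0.42 ± 0.13, adjusted p = 0.0452). The 8 genes lower in IP than in PBS are given with their log2 fold changes. They were Hkdc1 (-1.87), Slc2a4 (-1.21), Eno3 (-0.96), Pdk2 (-0.94), Ldhb (-0.91), Bpgm (-0.74), Pfkm (-0.72) and Pdha1 (-0.39). All but Ldhb were named after their values were seen.

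Of 16 genes of the citrate cycle, which oxidises what pyruvate dehydrogenase passes on, 7 were lower and 0 higher in IP than in PBS, where 14.2% of all genes were lower (0 higher at an unadjusted p under 0.05 in edgeR, and 0 in DESeq2 and limma voom), with a median of -0.38, and with library totals 15 were lower. In IV against PBS 2 were lower and 0 higher, where 5.66% of all genes were lower, with a median of -0.13 and again 0 higher by the other counts. Their summed level was 4863 to 5795 CPM in PBS, 3751 to 3912 in IP and 4199 to 5112 in IV. Of 4 tested gluconeogenesis genes, 2 were lower in IP than in PBS. Melanoma and proliferation markers were lower in the same libraries, as given above, and their part in these values was not tested.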

How the data were processed

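RNA of 9 omenta was made into poly(A) libraries with a directional kit and sequenced as pairs, per the labels' protocols. The submitters' processing notes list mm39, featureCounts, limma and STAR 2.7.9 without saying what each did. The sources used here give neither the annotation release nor the strand setting. The authors deposited raw counts for 55359 genes and log2 CPM for 18833 genes, and the latter equalled a recalculation from the counts of those genes (0.5 added to each, divided by their total, no other scaling) to within 5e-14. Identifiers were matched to symbols of GENCODE M21 on GRCm38 (52083 matched), whose build differs from mm39, so gene coordinates are not printed. Promoter sequences and their coordinates are those of RefSeq on GRCm38.p6.

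Counts were analysed in R 4.3.3 with edgeR 4.0.16: filterByExpr (17123 genes left), TMM, 1 robust quasi-likelihood fit of all 9 libraries without covariates, two-sided tests, Benjamini-Hochberg adjustment over all genes tested, and a threshold of 0.05. Standard errors are the absolute log2 fold change over the square root of F, and CPM are means ± SD of 3 libraries. The method was tested on simulated counts, drawn independently with the same spread for all genes and no outlying library. That simulation says nothing of libraries that stand apart from their group, such as IV 4. Alternatives used DESeq2 1.42.0, limma 3.58.1, other scalings and filters, thinned counts, a replicate block and each library left out.

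The members and lists were chosen with earlier results of these data known. All 33 members are accounted for, and of the pathway lists Gapdh, Ldhb, Slc2a3, Epas1, Arnt and Vhl were to be named whatever their result. Each library carries its own mouse number in the labels. The p-values rest on the spread between libraries within the 3 groups, estimated in 1 fit and drawn towards that of other genes. Those of IP against PBS therefore also depend on the IV libraries. The smallest chi-square per degree of freedom between libraries of 1 group was 7.09, and none was treated as a repeat.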

Additional observations from a re-analysis of the deposited data

Results flagged for a closer look

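Levels differed between the IP and IV groups for 16 of the 33 genes, all higher in IP, by the direct test of IP against IV. Among all genes tested 5.93% were higher and 4.47% lower there. The log2 fold change of that test is the difference between the changes of IP and of IV against the shared PBS libraries. Without a group given T cells that lacked IL-12 mRNA, the parts of T cells and IL-12 cannot be told apart. The IP minus IV log2 fold changes were, for the glycolytic enzymes, Hk2 (0.98), Pfkp (0.59), Eno2 (1.47) and Pkm (0.69). For the transporters and flux regulators they were Slc2a1 (1.63), Slc16a3 (2.27) and Pfkfb3 (1.13). For the oxygen sensing genes they were Hif1a (1.07), Egln1 (0.58) and Egln3 (3.34). For the other hypoxia targets they were Vegfa (1.83), Adm (2.10), Ndrg1 (1.46), Bnip3 (1.53), P4ha1 (0.95) and P4ha2 (1.92). Of these 16 calls, 11 held in all 21 other settings.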

How the results depend on the processing

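The counts of members higher in IP than in PBS (17) and in IP than in IV (16) stayed within a factor of 1.5 in all settings. Leaving out 1 library gave 14 to 20 and 12 to 19. Of the 18 members called in IP against PBS, 13 kept the call in all 21 settings, and of the 16 in IP against IV, 11 did. Of the 2079 member values under other settings, 0 called values reversed. With 1 library left out, members lower numbered 0 to 1 in IP against PBS (1 in the fit of all libraries), 0 to 5 in IV against PBS (1) and 0 to 1 in IP against IV (0), and members higher in IV against PBS 0 to 1 (0). With library totals alone 2 members were lower in IP against PBS. The lower member in IV against PBS was lost (0 lower) with limma on the deposited log2 CPM, with only the 2 groups fitted, and with the replicate block.

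Over all genes, leaving out 1 library gave 1602 (without PBS 1) to 2947 (without IV 4) lower in IP against PBS, 770 (without PBS 1) to 2332 (without IV 4) higher and 210 (without PBS 1) to 2248 (without IV 4) lower in IV against PBS, and 435 (without IP 2) to 1709 (without IV 4) higher and 238 (without IP 2) to 1164 (without IV 4) lower in IP against IV. DESeq2 called 1766 lower in IV against PBS and 1248 lower in IP against IV. The deposited log2 CPM gave 921 higher and 542 lower in IV against PBS and 506 higher in IP against IV. Fitting only IV and PBS gave 935 higher and 275 lower. The cause of these shifts was not tested. Same-numbered libraries did not deviate together throughout (correlations from -0.45 to 0.12 over 6 pairs), so the numbers are not taken as pairs. With the replicate block 571 genes were lower in IV against PBS, 626 higher and 508 lower in IP against IV, and 16 and 15 members were higher in IP against PBS and IP against IV. The isozyme ratios, with 3 libraries against 3 or fewer, could not pass the threshold in any setting, so their p-values say nothing of stability. The depth of IV 2 limits the precision of the low genes in that library.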
